A study of Mus musculus with 3 samples.

Results

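The primary somatosensory area (SSp) was followed in 3 coronal hemisphere sections of mouse brain that had been profiled by spatial transcriptomics (ST). Its members were the spots that the authors labelled SSp, 663 of 8549 listed spots (7.76%). These were 215 of 2881 spots in the control (CON) section, 229 of 2828 in the resilient (RES) section and 219 of 2840 in the susceptible (SUS) section. The rule used only the area label, which the authors set from stained images, a brain atlas and marker genes, so the label itself draws in part on expression. All animals were male C57BL/6J mice of 8 weeks. The RES and SUS mice had been put through chronic social defeat stress (CSDS), daily attacks by a larger CD-1 male for 10 days, while the CON mouse met a non-aggressive C57BL/6 mouse. CSDS mice whose time near an unfamiliar CD-1 mouse rose (social interaction ratio above 1) were called RES, and those with a ratio below 1 were called SUS. Brains were taken 1.5 h after the last exposure and cut at 10 μm, and each group was 1 section from 1 mouse. A difference between sections therefore cannot be told apart from a difference between animals, slides or libraries, and no test between groups was possible.

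SSp receives touch signals from the skin and whiskers by way of the thalamus. Like other neocortex it is layered, with few neurons directly under the pia, small pyramidal cells above a granular layer in which thalamic axons end, and large pyramidal cells below it. In rodents the granular layer of SSp holds the barrels, clusters of neurons that each serve 1 whisker and stain strongly for the mitochondrial enzyme cytochrome oxidase. The fibre tracts (FB) of the corpus callosum lie under its innermost layer.

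A Visium spot captures mRNA from a small disc of tissue that can hold several cells of different types, and molecules are counted by their unique molecular identifiers (UMIs). For each spot the deposited table gave the UMIs, the number of genes with a UMI, and the percentages of UMIs that fell on mitochondrial genes, on ribosomal protein genes and on genes of red blood cells. It held no value for a single gene, so the label of SSp could not be checked by expression. Fewer cells under a spot cannot be told apart from less RNA per cell. Medians over spots carry 95% order-statistic intervals, which cover the spread of spots within a section and treat adjacent spots as independent, so they are too narrow for anything wider. The bounds of a ratio set the low end of one interval against the high end of the other. RES and SUS were both divided by the same CON section.

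The place of SSp is given as a description, since the authors set the labels in part by place, and it is no check of the label. SSp was 1 connected band in each section, between the posterior parietal association area (PTL) on one side and the auditory area (AUD) on the other, and it reached from the outer edge of the tissue to FB. Of the listed spots next to an SSp spot, counted once for each SSp spot they touch, 93.6% were SSp as well in CON and in RES, and 94.0% in SUS. The rest were PTL, AUD and FB, with 2 neighbours in the cerebral nuclei (CNU) in RES. The band had 22, 22 and 23 spots at 100 μm from the outer edge and 17 spots beside FB in every section. Its median thickness, the distance to the edge plus the distance to FB, was 1128 μm in CON, 1219 μm in RES and 1100 μm in SUS. No SSp spot lay on the margin of the capture grid, whereas AUD touched it with 13 spots in CON and 15 in RES. SSp was thus cut by the slide in none of the sections.

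**Figure D1:**
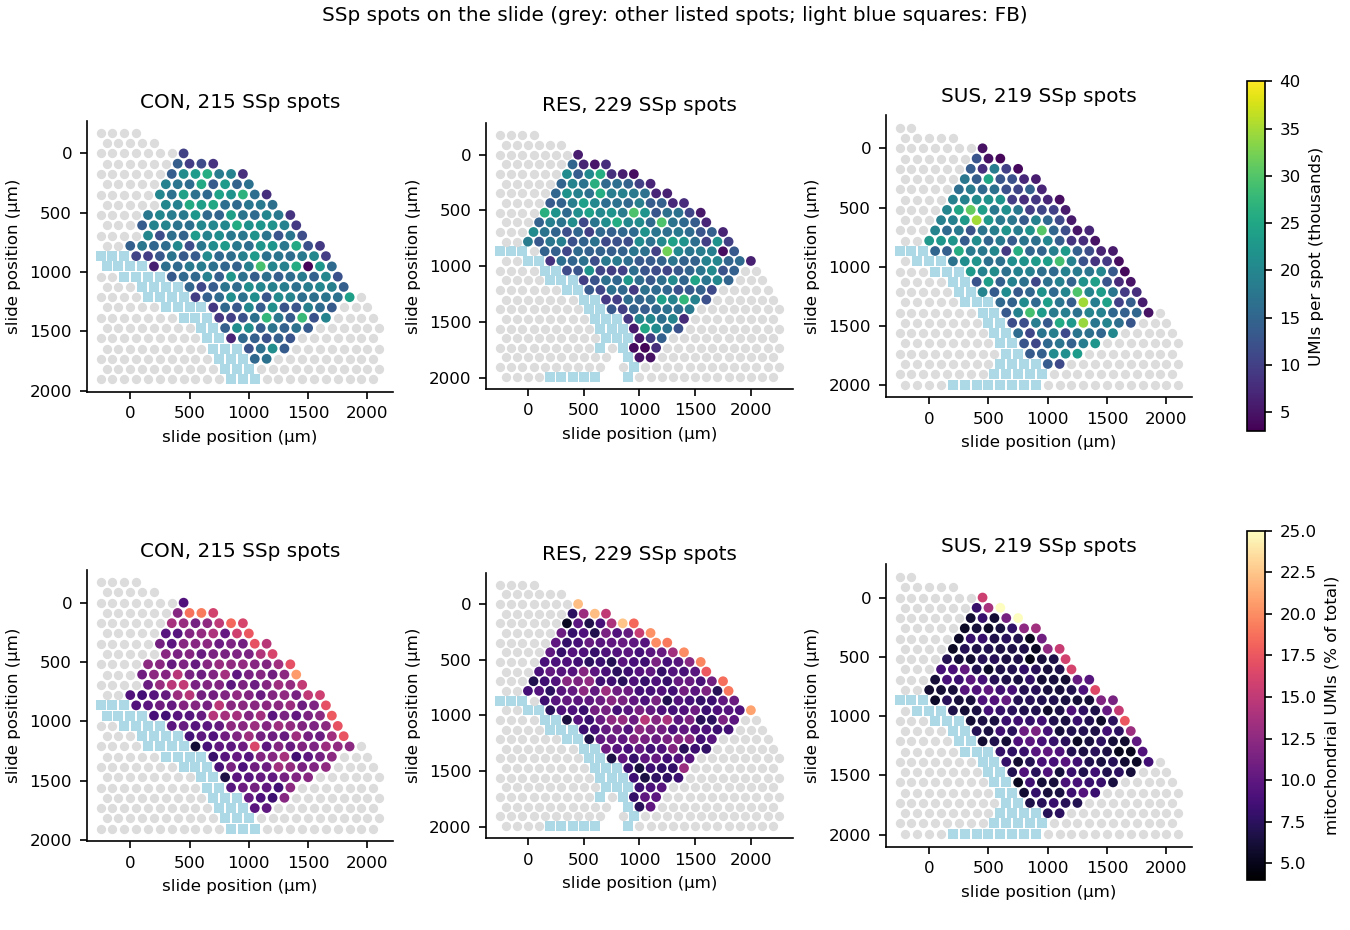
Places of the SSp spots on the slide (μm from the first SSp spot) in the 3 sections, coloured by UMIs per spot (top) and by the percentage of mitochondrial UMIs (bottom). Grey points are other listed spots and light blue squares are FB. The outer row of spots is dark in UMIs and bright in mitochondrial percentage in all 3 sections, with medians of 11946 (CON), 6867 (RES) and 5551 UMIs (SUS).

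Over the whole band, UMIs were close between sections and the mitochondrial percentage was not. CON had a median of 16828 UMIs (interval 16370 to 17600), RES of 15409 (14778 to 16065) and SUS of 16626 (15434 to 17739). RES lay below CON with intervals apart, and SUS overlapped both. Single spots ran from 3401 to 29084 UMIs in CON, from 3318 to 32048 in RES and from 3594 to 34806 in SUS, so spots of one section differed far more than the medians did. The number of genes followed, with medians of 5482 in CON, 5104 in RES and 5369 in SUS. SSp gave 9.77% of all UMIs of the CON section, 11.3% of RES and 10.2% of SUS.

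The mitochondrial percentage is the share of UMIs from the transcripts that mitochondria make from their own genome. In SSp its median was 11.7% for CON (interval 11.4 to 12.0), 9.50% for RES (9.30 to 9.83) and 7.24% for SUS (6.97 to 7.50). The 3 intervals do not overlap, and RES had 0.809 of the CON value (0.775 to 0.859) and SUS 0.616 (0.581 to 0.655). The ribosomal protein percentage, the share on the genes of the proteins of the ribosome, was nearly level. It was 6.78% in CON (6.68 to 6.87), 7.01% in RES (6.88 to 7.13) and 6.98% (6.83 to 7.05) in SUS, a ratio to CON of 1.03 in both. The CON and RES intervals are just apart and the CON and SUS intervals overlap. Divided by the ratio of the whole sections, the SSp ratio of UMIs was 1.18 in RES and 1.17 in SUS and that of the mitochondrial percentage was 0.879 and 0.804. On that scale the UMI ratio was above 1 in both comparisons, although the undivided SUS ratio of 0.988 (0.877 to 1.08) has an interval that includes 1. The mitochondrial percentage of SSp was still below CON. PTL and AUD shared this. In RES their undivided mitochondrial ratios to CON were 0.835 and 0.774, with 0.920 for the whole section. In SUS they were 0.544 and 0.651, with 0.767. Their UMI ratios, 0.882 and 0.886 in RES and 0.906 and 0.935 in SUS, were likewise above the 0.779 and 0.848 of the whole sections.

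These percentages can be turned back into molecules. Over the deposited number of UMIs they gave whole numbers in 0 of 663 SSp spots. For all 663, however, some larger total made all 3 percentages whole within 1e-06, and in 614 spots (92.6%) it was the only such total below 1.9 times its size. The deposited UMIs plus the mitochondrial and red blood cell UMIs came within a small remainder of this total, with a median share of 0.491% (CON), 0.845% (RES) and 0.928% (SUS). In these numbers the deposited UMIs thus leave out the mitochondrial and red blood cell UMIs, which the percentages count. The search began at the deposited UMIs plus the mitochondrial and red blood cell UMIs, and begun at the deposited UMIs alone it gave the same total in 662 of 663 spots.

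In recovered molecules an SSp spot held a median of 2302 mitochondrial UMIs in CON (2187 to 2386), 1700 in RES (1658 to 1731) and 1340 (1269 to 1393) in SUS. These intervals do not overlap, so the order of the percentages was also the order of the molecules. Ribosomal protein UMIs numbered 1316 in CON (1270 to 1357), 1193 in RES (1155 to 1236) and 1293 (1222 to 1364) in SUS. CON and SUS overlap there and RES lies below CON. Per 100 deposited UMIs, the mitochondrial UMIs were 13.4, 10.7 and 7.93 in CON, RES and SUS. Per 100 deposited UMIs the ribosomal protein UMIs were 7.76 (CON), 7.86 (RES) and 7.65 (SUS). The small SUS excess in the percentage thus changed to a ratio of 0.985 over a total without mitochondrial UMIs, red blood cell UMIs and the remainder.

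Next, SSp was followed from the outer edge to FB. Each spot was given a relative depth, its distance to the nearest uncovered place outside the tissue divided by the sum of that distance and its distance to the nearest FB spot. The band was then divided into 5 depth steps of equal width, numbered from step 1 at the outer edge to step 5 at FB. They held between 34 and 54 spots. In CON the medians from the outermost to the innermost step were 16828, 17328.5, 19042, 16794 and 14714.5 UMIs. In RES they were 12783, 18767.5, 15340, 15422 and 12868.5 UMIs. In SUS they were 7817, 17778, 18799, 18372 and 15420 UMIs. The outermost step of SUS was the lowest of these 15 medians, and its interval (6026 to 9411) overlaps none of the others but that of the outermost step of RES (7650 to 14392).

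Divided by the middle step of its own section, the outermost step had 0.884 of the UMIs in CON (0.696 to 1.103), 0.833 in RES (0.446 to 0.994) and 0.416 (0.289 to 0.538) in SUS. The SUS interval includes neither 1 nor any value of the CON interval. Keeping only spots whose 6 neighbours were all SSp drops the first row, the side borders and the spots beside FB. The ratios were then 1.06 (CON), 0.996 (RES) and 0.569 (SUS), so the lower values of CON and RES were not kept. Against the same step of CON, the outermost step had a ratio of 0.465 in SUS (0.320 to 0.673) and 0.760 in RES (0.406 to 1.03). In the 4 inner steps the SUS ratio lay between 0.987 and 1.09, and all 4 intervals include 1. The near equality of SUS and CON over the whole band thus joined a shallow rim with an interior at or slightly above CON. In SUS, 31 of the 35 SSp spots below 10000 UMIs were in the outermost step, against 19 of 37 in RES and 8 of 16 in CON. All 9 SUS spots below 5000 UMIs were there as well.

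The rim can be read more finely by distance in μm. At 100, 200, 300 and 400 μm from the edge the medians of SUS were 5551, 11112.5, 15950 and 19167 UMIs. RES had 6867, 14938, 18599 and 18720.5 UMIs at these distances, then 19517 at 500 μm and 14714.5 at 600 μm. CON had 11946 UMIs at 100 μm and 20024 at 200 μm. All 3 sections thus had a shallow first row. At 200 μm CON and RES were near the medians of their middle steps (19042 and 15340), with a peak at 300 to 500 μm in RES, and SUS came near its own (18799) at 400 μm. In SUS the outermost step had 6368 UMIs in PTL, 6668 in AUD and 7776 in the retrosplenial area (RSP), and its ratio to the middle step was 0.370, 0.384 and 0.519, clear of 1 in PTL and AUD and not in RSP (0.426 to 1.07). PTL of RES had a rim of 7496 UMIs with a ratio of 0.436 (0.324 to 0.585), so a rim this shallow was found neither in SSp nor in SUS alone. Along SSp the shallow rim of SUS ran from end to end. With the SUS band parted along its length, the outermost step had 8153 UMIs on the PTL side, 7416.5 in the centre and 7702.5 on the AUD side.

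At the inner end the median of UMIs was below that of the middle step in every section when all spots were counted. The ratio of the innermost to the middle step was 0.773 in CON (0.655 to 0.917), 0.839 in RES (0.572 to 1.04) and 0.820 (0.674 to 1.12) in SUS, clear of 1 in CON alone. With spots whose 6 neighbours were all SSp the ratio was 0.811 in CON, but 1.04 in RES and 1.02 in SUS, so the direction held in CON only. This choice drops the 17 spots beside FB in each section, which belong to the inner end itself. RES also had a tip of 13 spots in the classes of 1200 and 1300 μm from the edge. Its 10 spots at 1200 μm had a median of 9141 UMIs and its 3 spots at 1300 μm 4616 UMIs, and these bins are thin.

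**Figure D2:**
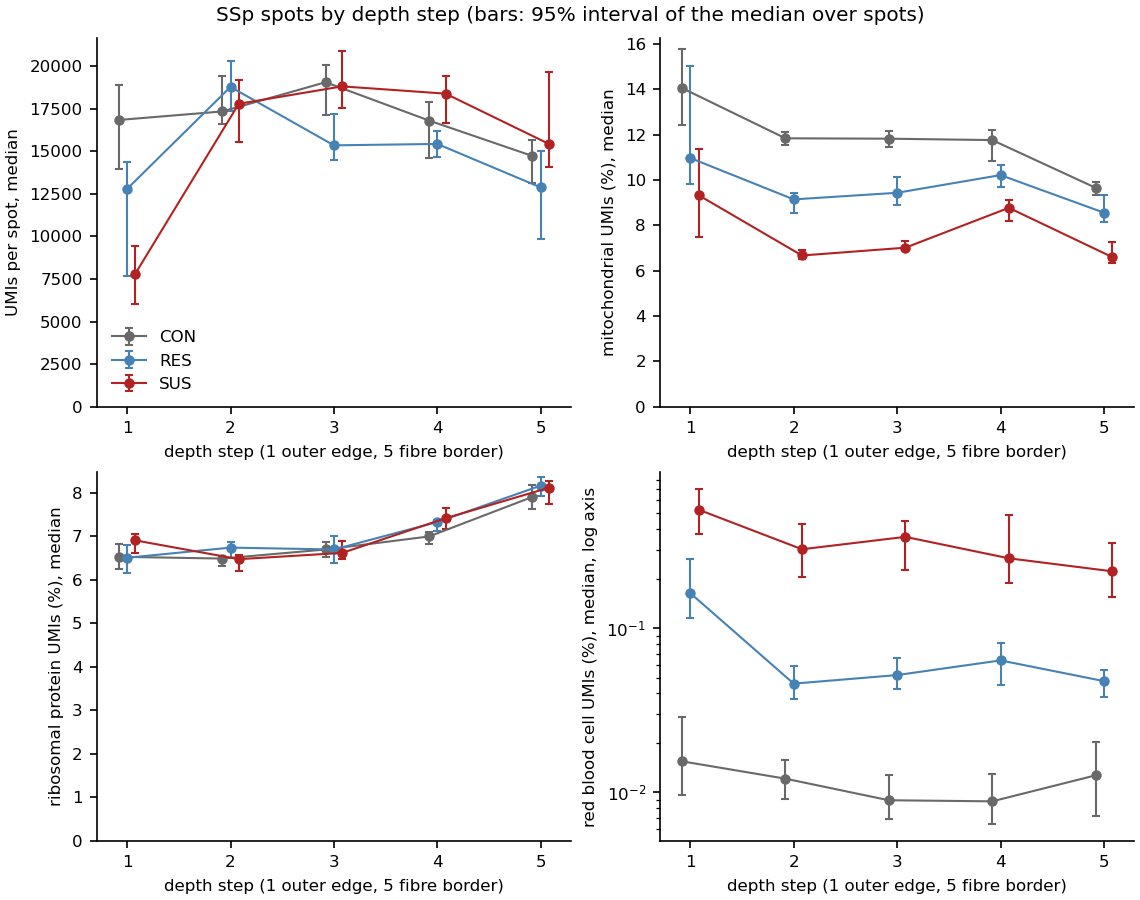
Medians over SSp spots by depth step (1 at the outer edge, 5 at the fibre border) for UMIs, mitochondrial percentage, ribosomal protein percentage and red blood cell percentage (log axis), with 95% intervals of the median and 1 line per section. The outermost step of SUS falls to 7817 UMIs, the mitochondrial lines keep the order CON, RES, SUS, the ribosomal protein lines rise from step 3 to step 5, and the red blood cell lines are separate at every depth.

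The mitochondrial percentage had a profile of its own. From the outermost to the innermost step it was 14.05, 11.8, 11.8, 11.8 and 9.65% in CON. RES had 11.0, 9.14, 9.43, 10.2 and 8.56%, and SUS 9.33, 6.67, 7.01, 8.77 and 6.60%. CON was highest and SUS lowest in all 5 steps. In the outermost step, however, the interval of RES (9.83 to 15.0) overlaps those of CON (12.4 to 15.8) and SUS (7.50 to 11.3). The ratio of SUS to CON ran from 0.564 in step 2 to 0.746 in step 4, with all 5 intervals below 1, and that of RES to CON from 0.773 to 0.886, with the intervals of steps 2, 3 and 4 below 1.

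Between the rim and FB the percentage did not fall evenly, but had an inner band of higher values. In SUS it was 6.90% at 500 μm from the edge (6.62 to 7.15), 9.30% at 700 μm (8.74 to 10.0) and 6.50% at 900 μm (6.35 to 7.43). In RES the same distances had 8.75% (8.25 to 9.31), 10.9% (9.58 to 12.0) and 9.40% (8.24 to 11.2). In CON they had 11.9% (10.5 to 12.3), 12.4% (11.3 to 13.7) and 10.1% (9.40 to 10.6). The inner rise was clear of both sides in SUS, clear of the outer side in RES, and in CON only the fall towards FB was clear. Measured from FB, the band lay at 400 to 500 μm, with 12.4% at 400 μm in CON, 11.1% at 500 μm in RES and 8.82% at 400 μm in SUS. These distance classes held 18 to 20 spots each, so most of them are thin. Without values per gene, neither a layer nor a barrel can be assigned to these distances. An inner rise of the percentage was also found outside SSp. In PTL of SUS the median went from 5.21% in step 3 (5.02 to 5.45) to 6.22% in step 4 (5.87 to 6.84). In AUD of SUS it went from 6.11% in step 2 (5.84 to 6.32) to 7.37% in step 3 (6.59 to 7.63). PTL also rose from step 3 to step 4 in CON and RES, with overlapping intervals. RSP was higher in step 3 than in steps 2 and 4 in every section, with overlapping intervals. AUD of CON and RES fell in each step up to step 4.

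In recovered molecules, step 4 of SSp was above step 2 in SUS with intervals apart, and not in RES or CON. In SUS, step 4 had 1679 mitochondrial UMIs (1525 to 1778) and step 2 had 1344 (1204 to 1461), while the deposited UMIs were 18372 and 17778. Step 3 of SUS lay between them at 1540 (1391 to 1647) and overlaps both. In RES the same steps had 1736 (1589 to 1836) and 1813.5 (1751 to 1950), at 15422 and 18767.5 deposited UMIs, so there the higher percentage stood on fewer other molecules. CON had 2155 (1920 to 2417) in step 4 and 2365 (2205 to 2544) in step 2. The rim differed from this. In the outermost step of SUS the mitochondrial UMIs, 831 (780 to 950), were the lowest of its 5 steps, and the percentage was the highest. That excess, 1.33 times the middle step (1.03 to 1.64), turned to 0.956 with spots whose 6 neighbours were all SSp. CON had its most mitochondrial UMIs in the outermost step, 2708 (2434 to 2945).

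**Figure D3:**
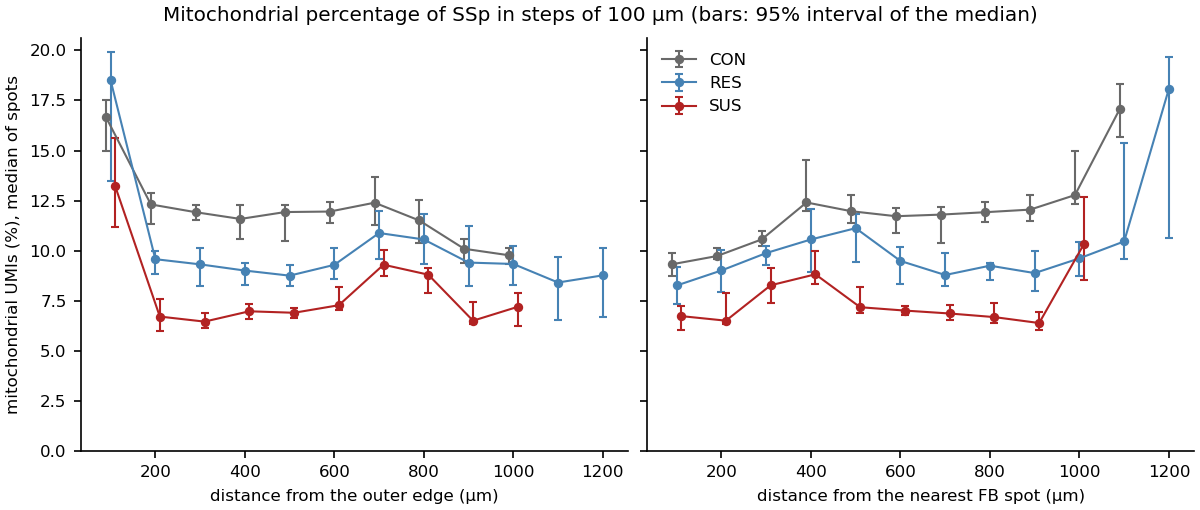
Median mitochondrial percentage of SSp spots by distance in classes of 100 μm from the outer edge (left) and from the nearest FB spot (right), with 95% intervals, for classes of 10 or more spots. All 3 sections fall steeply after the first row, and SUS rises again to 9.30% at 700 μm from the edge, where RES has 10.9% and CON 12.4%.

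The ribosomal protein percentage was higher next to FB than in the middle of the band in all 3 sections. It was 6.53, 6.49, 6.70, 7.00 and 7.90% in the 5 steps of CON. RES had 6.51, 6.74, 6.70, 7.33 and 8.17%, and SUS 6.91, 6.47, 6.62, 7.41 and 8.12%. Between steps 1 and 2 it fell in SUS, with intervals apart (6.63 to 7.04 and 6.19 to 6.57), and the intervals of CON and of RES overlap there. The innermost step divided by the middle step was 1.18 in CON (1.11 to 1.25), 1.22 in RES (1.13 to 1.31) and 1.23 (1.13 to 1.28) in SUS, clear of 1 in 3 of 3 sections with overlapping intervals. Against CON, step 4 had a ratio of 1.05 in RES (1.004 to 1.08) and 1.06 (1.01 to 1.12) in SUS, and the intervals of the other steps include 1 in both.

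The number of genes at equal UMIs also changed with depth. For each SSp spot it was divided by the median of spots of the other Isocortex areas of the same section within 5% of its UMIs. Over the band the median of this ratio was 1.001 in CON, 0.987 in RES and 1.006 in SUS. The direction in RES depends on the match, as spots of 10000 to 15000 UMIs gave 1.02 in each section. By step it went in CON from 1.02 (1.02 to 1.03) at the edge to 0.980 (0.976 to 0.988) at FB, in RES from 1.01 to 0.967 (0.962 to 0.970) and in SUS from 1.02 (1.01 to 1.02) to 0.977 (0.969 to 0.989). Against spots of the other areas with like UMIs, the ratio was thus lower near FB than near the edge in 3 of 3 sections, with the intervals of the 2 ends apart (0.999 to 1.01 at the edge of RES). The partners differ between the ends, since each spot was matched on its own UMIs. Set against SSp spots of CON with the same UMIs, RES spots had 0.969 of the genes (0.966 to 0.973, 191 matched spots) and SUS spots 0.986 (0.983 to 0.990, 178 matched spots).

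The red blood cell percentage was the measure in which SSp differed most between sections. Red blood cells carry globin mRNA, and the brains were rinsed, with no perfusion described. The median was 0.0110% in CON (0.00928 to 0.0130), 0.0570% in RES (0.0511 to 0.0632) and 0.319% (0.268 to 0.372) in SUS, or 2, 10 and 52 red blood cell UMIs per spot. The 3 intervals are far apart, with a ratio to CON of 5.19 in RES (3.93 to 6.81) and 29.0 (20.6 to 40.1) in SUS. Since the CON median rests on 2 UMIs, the sums are given as well. The red blood cell UMIs of SSp summed to 3155 (CON), 9223 (RES) and 29349 (SUS), or 0.0753, 0.234 and 0.746% of its recovered total, which makes the ratios to CON 3.11 and 9.90. None was found in 30 of 215 CON spots (13.95%), in 1 of 229 RES spots and in 0 of 219 SUS spots.

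In CON few spots held most of the signal, and in SUS every spot held some. The 10% of spots with the highest values held 85.7% of the red blood cell UMIs of SSp in CON (22 spots), 74.3% in RES (23 spots) and 49.7% (22 spots) in SUS. Above 1% were 6 CON spots (2.79%, exact interval 1.03 to 5.97), 14 RES spots (6.11%, 3.38 to 10.0) and 40 SUS spots (18.3%, 13.4 to 24.0). Of these, 2, 5 and 27 lay beside another such spot. The highest spot reached 3.80% in CON, 5.40% in RES and 11.2% in SUS, the last at 100 μm from the edge. By depth, RES was highest at the rim, at 0.163% against 0.0459 to 0.0636% in the other steps. Its outermost step, 43 of 229 spots with 14.8% of the recovered total, held 44.0% of the red blood cell UMIs and 10 of the 14 spots above 1%. In SUS the outermost step had the highest median as well, 0.526% (0.372 to 0.702), but this interval overlaps those of steps 2, 3 and 4. That step held 17.6% of the red blood cell UMIs of SSp in SUS with 11.0% of the recovered total, and step 4 held 28.1% with 23.2%. From summed UMIs the percentage was thus 1.20% in the outermost step and 0.906% in step 4. Of the 40 SUS spots above 1% the outermost step held 12 and step 4 held 11, each among 45 spots. SUS was above RES, and RES above CON, in all 5 steps with intervals apart.

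**Figure D4:**
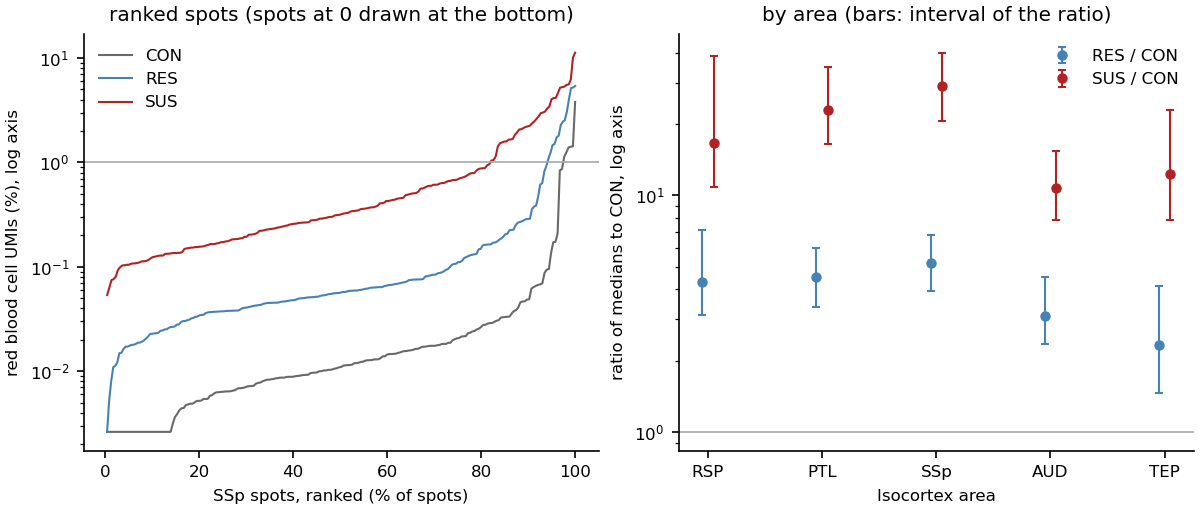
Left, red blood cell percentage (log axis) of SSp spots ranked within each section, with spots at 0 drawn at the bottom and a line at 1%. Right, ratio of the median red blood cell percentage of RES and SUS to CON (log axis) in the 5 Isocortex areas, with the interval of the ratio. The SUS ratio of medians was 29.0 in SSp and 10.8 in AUD, with intervals apart.

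These measures moved together to different degrees from spot to spot. Over the SSp spots of a section, which share 1 library and whose neighbours are not independent, Spearman's rho between UMIs and mitochondrial percentage was -0.06 in CON (215 spots), -0.55 in RES (229) and -0.39 in SUS (219). In the middle 3 steps alone it was -0.17, -0.62 and -0.23 (138, 148 and 139 spots). UMIs are also part of the total under the percentage, so the measures are not independent. The mitochondrial and ribosomal protein percentages had a rho of -0.33 (CON), 0.10 (RES) and 0.40 (SUS). The middle 3 steps had -0.09, 0.37 and 0.56. The mitochondrial and red blood cell percentages had 0.06, 0.42 and 0.24, and 0.07, 0.41 and 0.18 in the middle 3 steps. Adjacent SSp spots differed in UMIs by a median of 1.24-fold in CON, 1.26-fold in RES and 1.29-fold in SUS, and pairs that were not adjacent by 1.28-, 1.38- and 1.43-fold. Within the same step, pairs differed by 1.25-, 1.30- and 1.30-fold, little more than neighbours did.

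Finally, SSp was set beside the other Isocortex areas, RSP, PTL, AUD and TEP (temporal association, entorhinal and perirhinal areas), in the same section. Its UMIs were 1.04 times theirs in CON (0.985 to 1.11), 1.08 times in RES (1.01 to 1.18) and 1.20 times in SUS (1.05 to 1.36). Against TEP the ratio was 1.06, 1.46 and 1.74 in CON, RES and SUS, the largest of the 4 areas in RES and SUS, while in CON it was 1.09 against RSP and 1.07 against AUD. The TEP spots covered other depths in each section, with all 85 in steps 3 and 4 in CON and 34 of 114 in the outermost step in SUS, so these ratios do not compare like depths. In step 4 TEP had 16079 (CON) and 15571 UMIs (RES), close to the 16794 and 15422 of SSp. In RES, however, step 4 held 23 of the 81 TEP spots and step 3 held 50. In step 3 of SUS, TEP had 13837 UMIs against 18799 in SSp, so a gap to TEP was also found at like depth. In SUS the ratio was clear of 1 against TEP alone of the 4 areas, and against PTL and AUD together it was 1.08. Against PTL it was 0.958, 0.994 and 1.04, with intervals that include 1 in all 3 sections.

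In the median mitochondrial percentage SSp held the same place below RSP and above PTL in all 3 sections. RSP was higher, with ratios of SSp to RSP of 0.889 in CON (0.841 to 0.954), 0.765 in RES (0.731 to 0.848) and 0.677 (0.608 to 0.751) in SUS. PTL was lower, with ratios of 1.11 (1.05 to 1.17), 1.08 (1.02 to 1.15) and 1.26 (1.14 to 1.36), and TEP was lower still, with 1.74, 1.70 and 1.37. AUD was lower in CON (1.14) and RES (1.20) with intervals clear of 1, and in SUS the interval of the ratio of 1.08 includes 1 (0.968 to 1.17). With means the place above PTL was lost in RES, where both areas had 10.2%. Divided by CON, the mitochondrial percentage of RSP was 0.940 in RES and 0.809 in SUS, and that of TEP 0.831 and 0.786. These ratios were nearer to 1 than those of SSp (0.809 and 0.616). The UMI ratios of RSP, 0.952 and 0.956, were above those of the whole sections, and those of TEP, 0.668 and 0.605, were below.

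Compared with the pooled spots of PTL and AUD at the same relative depth, the mitochondrial percentage of SSp was higher in all 3 sections in steps 3 and 4, and in some sections in other steps as well. In the outermost step the ratio was 0.954 (CON), 1.003 (RES) and 0.838 (SUS), and all 3 intervals include 1. In step 2 it was 1.09 in CON (1.03 to 1.16), 1.10 in RES (0.986 to 1.17) and 1.17 (1.10 to 1.25) in SUS. In step 3 it was 1.15 in CON (1.08 to 1.23), 1.18 in RES (1.07 to 1.33) and 1.21 (1.05 to 1.32) in SUS. Step 4 had 1.16 in CON (1.02 to 1.25), 1.35 in RES (1.14 to 1.50) and 1.37 (1.20 to 1.48) in SUS. Next to FB it was 1.11 in CON (1.04 to 1.19), and 1.02 in both RES and SUS with intervals that include 1. In steps 3 and 4 SSp was thus above the pooled spots in 3 of 3 sections, and the intervals of the sections overlap. Taken singly, both areas had lower medians than SSp in these steps, but for AUD in step 3 of SUS, which had 7.37% (6.59 to 7.63) against 7.01% in SSp (6.90 to 7.31) and 5.21% in PTL. AUD touched the grid margin in CON and RES, as did 4 PTL spots in CON, and tissue beyond the grid is not seen, so distances to the edge near the margin are upper bounds. For UMIs, 14 of the 15 ratios to PTL and AUD had intervals that include 1. Step 2 of RES, at 1.28 (1.13 to 1.46), was the exception. For the ribosomal protein percentage, 10 of the 15 intervals include 1. SSp was lower in the outermost step in all 3 sections, at 0.8996 (0.837 to 0.968), 0.922 (0.838 to 0.985) and 0.931 (0.860 to 0.986). It was also lower in step 2 of CON, at 0.952 (0.916 to 0.981), and in step 3 of SUS, at 0.939 (0.900 to 0.998).

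**Figure D5:**
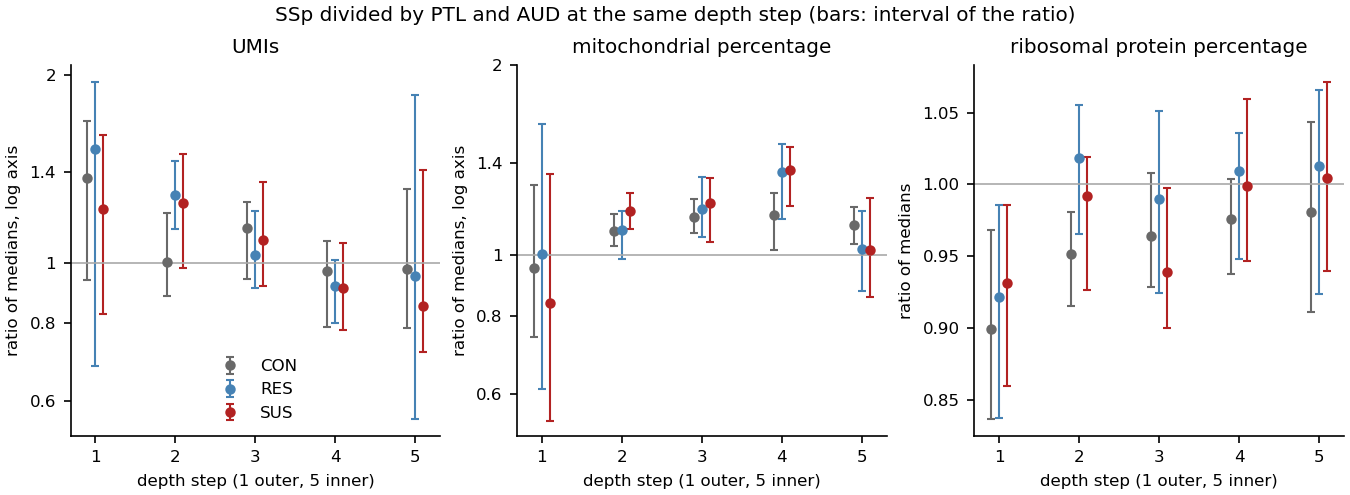
Median of SSp divided by the median of PTL and AUD spots of the same section and the same depth step, for UMIs, mitochondrial percentage (both on log axes) and ribosomal protein percentage (linear axis), with the interval of the ratio. The mitochondrial ratio is above 1 in steps 3 and 4 of all 3 sections, and the ribosomal protein ratio is below 1 in the outermost step of all 3.

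For red blood cell UMIs the order of areas changed between sections and with the summary used. Against the other areas, SSp had a ratio of medians of 0.601 in CON (0.450 to 0.844), of 0.881 in RES (0.748 to 1.03) and of 1.18 in SUS (0.907 to 1.52). With means the same ratios were 0.893, 1.09 and 1.02, and from summed UMIs 0.930, 1.18 and 1.10, so the CON ratio came closer to 1 and the RES ratio changed side. The ratio of SUS to CON medians was 29.0 in SSp, 22.9 in PTL (16.4 to 34.96), 16.7 in RSP, 12.3 in TEP and 10.8 in AUD (7.87 to 15.4). The interval of SSp overlaps those of PTL, RSP and TEP and lies above that of AUD. From summed UMIs the ratio was 9.90 in SSp, 12.8 in PTL, 13.1 in RSP, 9.12 in TEP and 4.50 in AUD, so SSp was then below PTL and RSP, and above AUD as before. Red blood cell and mitochondrial percentages thus put the 3 sections in opposite orders over the whole band. In the 209, 215 and 179 SSp spots with at most 1% of red blood cell UMIs, the mitochondrial percentage had medians of 11.8 (CON), 9.44 (RES) and 7.08% (SUS), nearly those of all spots. These spots still had red blood cell ratios to CON of 5.10 in RES and 24.8 in SUS, so the limit does not make the sections alike in that measure. A link between these percentages across sections was not tested.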

How the data were processed

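ST was measured in 3 Visium sections, 1 per group. Per the labels' processing notes and the methods, reads were handled with bcl2fastq, cutadapt, Space Ranger 1.0.0 and ST Pipeline and mapped to mm10, and rare genes and spots below 200 UMIs were removed, although 1 listed CON spot, in FB, has 188 deposited UMIs (lowest recovered total 207). The deposited table holds UMI counts and gene counts per spot without normalization, and the authors' percent values for 3 gene sets, whose members the sources used here do not name. Area labels and grid positions (deposited columns of other units, labels and row and column numbers) were joined by barcode. The summed UMI count of SSp was 3665618 (CON), 3509659 (RES) and 3571337 (SUS).

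Grid places were 100 μm apart. The total behind the percent values was the smallest that made all 3 whole (tolerance 1e-06). Genes at matched UMIs needed at least 5 partners. Bins under 20 spots were called thin. Shares have exact Clopper-Pearson 95% intervals, which like the others cover counting or spot error only. Functions were tested on simulated data. With 1 section per group no p-value was calculated. Members, areas, depth steps and alternatives were chosen with earlier results of these data known, and the parts along the band, the recovered totals, the comparison by depth step with PTL and AUD and the limits of 1% and 10000 UMIs were chosen after the values were seen. No gene was named, as the table holds no gene values. Clusters, image scale factors and gene counts were not analysed here. Values were computed in Python 3.11.15 with scipy 1.17.1, pandas 2.3.3 and numpy 2.4.6, and plots drawn with matplotlib 3.10.9.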

Additional observations from a re-analysis of the deposited data

Results flagged for a closer look

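In the median red blood cell percentage, SSp lay below AUD in the CON section, with a ratio of 0.506 (0.358 to 0.761), and above AUD in the SUS section, with a ratio of 1.37 (1.02 to 1.82). It was picked out because the ratio was on opposite sides of 1 in these sections with both intervals clear of 1. The difference was not tested, since each group is 1 section. In RES the ratio was 0.852 (0.663 to 1.03). With means the ratios were 0.615 in CON, 1.28 in RES and 1.36 in SUS. With spots of at least 5000 UMIs the ratios were 0.503 in CON and 1.38 in SUS, and without spots on the grid margin 0.512 and 1.37. In the middle 3 depth steps they were 0.440 and 1.44, and there the SUS interval (0.990 to 2.11) includes 1.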

How the results depend on the processing

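Ratios were recomputed under 157 alternatives for 26 results, 126 of them listed at the start and 31 chosen after seeing the data. In 137 the ratio stayed within the interval of the value given above and in 20 it left it. In 13 it lay on the other side of 1, and for 3 of these the interval of the value above had been clear of 1. Setting each section's overall median to 1 turned the UMI ratio of SSp in RES to 1.18 and gave 1.17 in SUS, and 0.879 and 0.804 for the mitochondrial percentage. The SUS UMI ratio was also above 1, at 1.002 to 1.05, under 4 choices of spots. With means the mitochondrial ratio of SUS was 0.672. Per 100 deposited UMIs the ribosomal protein ratio of SUS was 0.985. Another alternative kept only spots whose 6 neighbours were SSp, which drops the first row, the side borders and the spots beside FB. It gave an outermost-to-middle UMI ratio of 1.06, 0.996 and 0.569 (CON, RES, SUS), and an innermost-to-middle ratio of 1.04 (RES) and 1.02 (SUS). It also turned the mitochondrial ratio of the outermost step in SUS to 0.956. Genes at matched UMIs were 1.01, 0.991 and 1.01 in CON, RES and SUS with a window of 10% and 1.02, 1.02 and 1.02 between 10000 and 15000 UMIs, which turned RES. The red blood cell ratios of RES and SUS were 3.45 and 11.6 with means and 3.11 and 9.90 from summed UMIs, so their size depends on the summary and their direction did not. No paired analysis was possible because each group has 1 section. Depth limits the CON red blood cell values, at 2 UMIs per spot, and the spots at the rim.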
